A study of Mus musculus with 6 samples.

Results

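The genes described here mark Schwann cells, the glia that wrap the axons of peripheral nerves, in whole soleus (Sol) muscle. They are Mbp, Pmp22, Prx, S100b, Sox10 and Mag, chosen by symbol, so 6 of the 24411 genes in the table. Polyadenylated RNA was sequenced from 3 WT and 3 LSD1-mKO mice after voluntary wheel running (VWR). Each mouse gave 1 library, and sedentary mice were not part of the series. The LSD1-mKO mice carried floxed Lsd1 alleles together with CreERT2 driven by the human ACTA1 promoter, which is active in differentiating and mature muscle cells, and the WT mice carried the floxed alleles without CreERT2. All were male C57BL/6 mice, entered the experiment at 8 weeks of age, were familiarized for 3 days, were then dosed with tamoxifen (75 mg/kg on 5 days), and had wheels for 38 days. The deletion was therefore directed at muscle fibers, and Schwann cells entered the libraries with the nerve tissue left in the muscle. In bulk RNA, fewer cells of a type and less RNA per cell cannot be told apart.

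A myelinating Schwann cell wraps 1 axon in a spiral of membrane. Where the membrane layers are pressed together (compact myelin), Pmp22 sits in the membrane and Mbp holds its inner faces together. Prx links the outermost membrane to the cytoskeleton and the surrounding basal lamina, and Mag lies in the uncompacted membrane next to the axon. Sox10 is the transcription factor that Schwann cells need throughout their life, and with Egr2 it switches on the myelin genes. S100b is a calcium-binding protein found in Schwann cells in general. Mbp and Mag are also abundant in oligodendrocytes, the myelin-forming cells of the central nervous system, which muscle does not contain.

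The libraries held 8940206 to 10989846 estimated counts in WT and 10984664 to 13798059 in LSD1-mKO mice. Kdm1a, which encodes LSD1, was at 40.5, 38.2 and 33.6 CPM (counts scaled to a common library total) in WT and 14.6, 16.6 and 16.6 CPM in LSD1-mKO mice, so the libraries matched their labels. Its log2 fold change was -1.23 (SE 0.11, adjusted p = 0.016, edgeR quasi-likelihood test with Benjamini-Hochberg adjustment). Over the 12828 genes with enough counts to be tested, 2 passed an adjusted p of 0.05, or 0.0156%, and 6.4% had an unadjusted p under 0.05. Complete separation of the groups in CPM was seen for 12.7% of the genes tested, with LSD1-mKO higher for 6.63% and lower for 6.1%. Markers of fibroblasts, the cells that make the collagen matrix, differed widely between mice of 1 genotype: the summed level of 10 of them ran from 1452 CPM in WT replicate 1 to 4674 CPM in WT replicate 3, and from 1504 to 3015 CPM in LSD1-mKO mice. The summed immune markers ran from 119 to 361 CPM in WT and from 119 to 227 CPM in LSD1-mKO mice.

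None of the Schwann cell and myelin genes differed between the genotypes by the test. Of the 6, 5 had enough counts to be tested, 0 of these 5 passed the adjusted threshold in edgeR, DESeq2 or limma voom, and 0 had an unadjusted p under 0.05 in any of them. Mag fell below the expression filter and has no test. Levels per length, in TPM (transcript counts corrected for length and scaled to a common total), ranked Pmp22 first at 86.6 ± 16.4 TPM in WT and 84.4 ± 6.90 TPM in LSD1-mKO mice (SD, n = 3 each). Mbp followed at 15.1 ± 1.23 and 15.9 ± 1.68 TPM, then Prx at 5.51 ± 0.729 and 5.40 ± 0.680 TPM. S100b was at 3.80 ± 0.439 and 3.27 ± 0.713 TPM, and Sox10 at 1.62 ± 0.837 and 1.54 ± 0.341 TPM. Mag was lowest, at 0.539 ± 0.0673 and 0.771 ± 0.166 TPM. Sox10 and Mag were the only neighbours in this order whose values overlapped between mice.

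**Figure D1:**
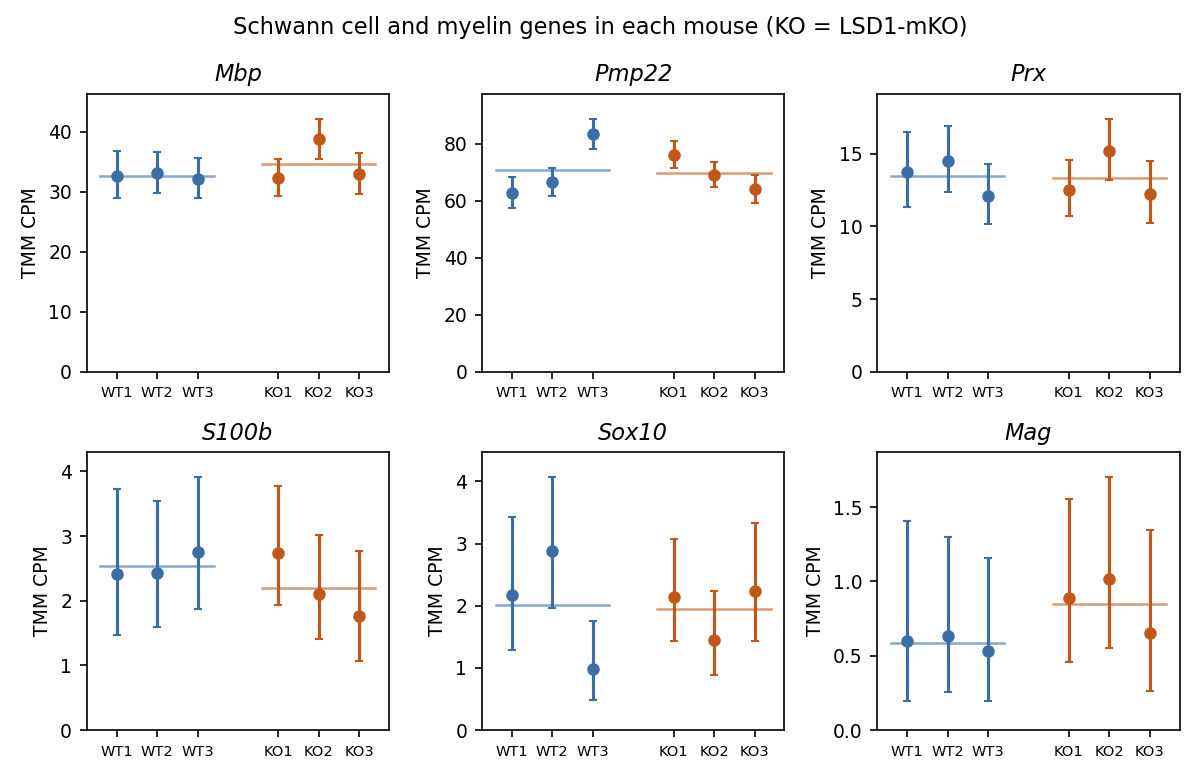
TMM-normalized CPM of the 6 genes in each mouse (WT in blue, LSD1-mKO, marked KO, in orange), with exact Poisson 95% intervals as bars and the genotype mean as a line. Mbp stood at 32.2 to 33.0 CPM in 5 mice and at 38.7 CPM in LSD1-mKO replicate 2, while Sox10 ran from 0.977 to 2.88 CPM within WT alone.

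The compact myelin genes came first in level and were measured with the most counts. Mbp (chromosome 18, 82475146 to 82585637, GRCm38, plus strand) overlaps the processed pseudogene Rpl21-ps8 on the opposite strand. Use of strand in counting is not given in the sources used here, so their reads cannot be told apart where they overlap. Mbp stood at 32.7, 33.0 and 32.2 CPM in WT and at 32.3, 38.7 and 32.9 CPM in LSD1-mKO mice. The WT mice were nearly alike, and LSD1-mKO replicate 2 was above the rest. Its log2 fold change was 0.09 (SE 0.10, 95% interval -0.14 to 0.31, adjusted p = 0.89, edgeR), and an exact two-sided permutation test over mice gave p = 0.6, where 0.1 is the smallest that 3 against 3 allows. The interval reaches from 0.908 to 1.24 of the WT level.

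Pmp22 (chromosome 11, 63128982 to 63159547, plus strand) was at 62.6, 66.4 and 83.2 CPM in WT and at 76.1, 69.0 and 64.0 CPM in LSD1-mKO mice. WT replicate 3 was the highest and WT replicate 1 the lowest of the 6, so the groups overlapped entirely. The log2 fold change was -0.02 (SE 0.12, 95% interval -0.31 to 0.26, adjusted p = 0.979, edgeR; exact permutation p = 0.9). Pmp22 encodes a membrane protein of compact myelin whose gene dose is critical in inherited neuropathies, and it is also transcribed in fibroblasts and other cells. WT replicate 3, where Pmp22 was highest, also had the highest sum of fibroblast markers, and WT replicate 1, where it was lowest, the lowest sum. The other mice did not keep this order. WT replicate 2 had the next highest sum, 3698 CPM, but less Pmp22 than LSD1-mKO replicate 2, whose sum was 1504 CPM. The part of fibroblasts in the Pmp22 level was not tested.

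Prx and Mag belong to the uncompacted parts of the sheath. Prx (chromosome 7, 27499324 to 27520214, plus strand), which overlaps the antisense gene Gm15541, was at 13.7, 14.5 and 12.1 CPM in WT and at 12.5, 15.2 and 12.2 CPM in LSD1-mKO mice. Both genotypes spanned nearly the same range, again with LSD1-mKO replicate 2 highest. The log2 fold change was -0.01 (SE 0.14, 95% interval -0.33 to 0.30, adjusted p = 0.988, edgeR; exact permutation p = 1.0). Whether counting used strand is not given in the sources used here, so reads of Prx and of its antisense partner cannot be told apart.

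Mag (chromosome 7, 30899176 to 30914873, minus strand) was at 0.603, 0.630 and 0.533 CPM in WT and at 0.888, 1.01 and 0.652 CPM in LSD1-mKO mice. Every LSD1-mKO mouse lay above every WT mouse, and it was the 1 gene of the 6 whose groups did not overlap, beside 12.7% of the genes tested (6.63% with LSD1-mKO higher). These levels rest on 5, 7 and 6 counts in WT and 12, 14 and 7 counts in LSD1-mKO mice. Pooled, 18 against 33 counts gave a ratio of 1.48 (95% interval 0.808 to 2.78, exact Poisson, counting error only), which includes no difference. The exact permutation p was 0.1, the smallest the design allows.

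Sox10 and S100b mark the lineage and had few counts. S100b (chromosome 10, 76253853 to 76261159, plus strand), which overlaps Dip2a on the opposite strand, was at 2.41, 2.43 and 2.75 CPM in WT and at 2.74, 2.10 and 1.77 CPM in LSD1-mKO mice. The lowest values were in LSD1-mKO replicates 2 and 3, but replicate 1 stood with the highest WT mouse. The log2 fold change was -0.20 (SE 0.26, 95% interval -0.79 to 0.40, adjusted p = 0.903, edgeR; exact permutation p = 0.3), and the interval reaches from 0.58 to 1.32 of the WT level. As for Prx, use of strand in counting is not given, so reads of S100b and Dip2a cannot be told apart where they overlap.

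Sox10 (chromosome 15, 79154908 to 79165240, minus strand) was at 2.17, 2.88 and 0.977 CPM in WT and at 2.15, 1.45 and 2.24 CPM in LSD1-mKO mice. WT replicates 2 and 3 were the highest and the lowest of the 6 mice, 2.95 times apart, and their counting intervals, 1.97 to 4.07 and 0.488 to 1.75 CPM, did not overlap. The LSD1-mKO mice lay between them. The log2 fold change was -0.05 (SE 0.40, 95% interval -0.97 to 0.87, adjusted p = 0.984, edgeR; exact permutation p = 0.9). The interval reaches from 0.509 to 1.83 of the WT level.

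**Figure D2:**
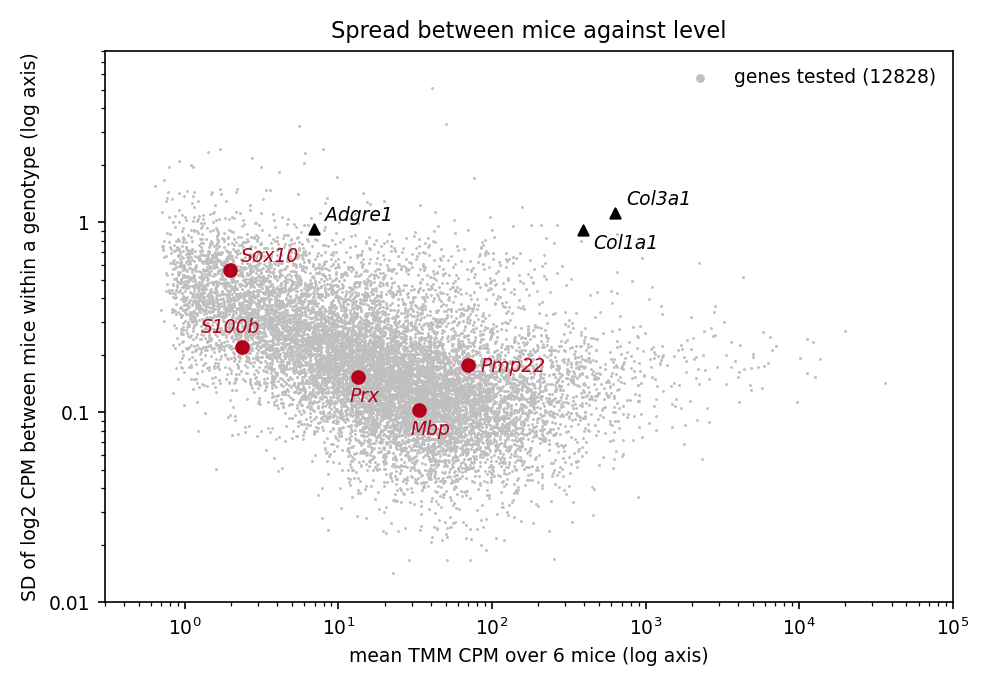
SD of log2 CPM between mice of a genotype against mean CPM (both axes logarithmic) for 12828 genes tested in gray, the 5 tested genes in red, and Col1a1, Col3a1 (fibroblast collagens) and Adgre1 (macrophages) as black triangles. Mbp has an SD of 0.10, inside the cloud of genes of its level, Sox10 one of 0.56, and the 3 triangles SDs of 0.91 to 1.11.

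By the SD of log2 CPM pooled over the genotypes, variation between mice ran from Mbp, the lowest of the 5 tested genes, to Sox10. Mbp had a coefficient of variation (SD as a percent of the mean) of 1.35% in WT and 10.3% in LSD1-mKO mice, and an SD of log2 CPM of 0.10, below which 20.8% of the genes tested fell. The WT values of Mbp lay closer together than the counting interval of any WT mouse, which was 28.9 to 36.8 CPM in WT replicate 1. The 1.35% therefore does not show that Mbp was steadier in WT mice, and the 10.3% rests on LSD1-mKO replicate 2. Pmp22 varied by 15.5% and 8.71%, Prx by 9.18% and 12.4%, S100b by 7.61% and 22.3%, and Sox10 by 47.9% and 22.2%. Within LSD1-mKO mice alone, Pmp22 had the lowest of these percentages, and S100b and Sox10 were alike. The SD of Sox10, 0.56, exceeded that of 93.7% of the genes tested.

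Part of each spread is counting error, which can be set apart by comparing the variance between mice with the variance that counting alone gives. The ratio was 0.748 for S100b and 0.254 for Mag, so their spread was no larger than counting alone gives. It was 1.96 for Prx, 2.48 for Mbp and 3.22 for Sox10, beside a median of 2.84 over all genes tested. Pmp22, the gene with the most counts here, was at 11.9, above 84.9% of the genes tested. The ratio depends on level as well as on spread: its median was 687 over the abundant soleus fiber markers.

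Over the 6 mice, the 5 tested genes did not move together by any test that passed. Of 10 pairs, Mbp and Prx had the largest correlation of log2 CPM (Pearson r = 0.73, exact permutation p = 0.0208, adjusted over the 10 pairs 0.208; Spearman rho = 0.83, exact permutation p = 0.0583, adjusted 0.34). Without WT replicate 3 and LSD1-mKO replicate 2, r was 0.50 over the other mice, so the relation rests in part on those mice. Pmp22 and Sox10 had r = -0.71 (exact permutation p = 0.11, adjusted 0.454).

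Sequence just before the transcription start shows which of these genes carry short matches to the DNA letters that Sox10-type and Egr2-type factors recognise. The 250 bases before each RefSeq start (GRCm38.p6) were searched on both strands for the SOX-type letters ACAAAG, the variant spelled ACAATG, the variant spelled TCAAAG and the variant spelled TCAATG. The EGR-type letters searched were GTGGGCG and the variant spelled GTGGGTG. For the 3 genes with a match, 1 window each is printed 5′ to 3′ on the strand of the gene, with the match in capitals (on the opposite strand for Prx and Mag):
Prx, chr7:27499074-27499323, plus strand: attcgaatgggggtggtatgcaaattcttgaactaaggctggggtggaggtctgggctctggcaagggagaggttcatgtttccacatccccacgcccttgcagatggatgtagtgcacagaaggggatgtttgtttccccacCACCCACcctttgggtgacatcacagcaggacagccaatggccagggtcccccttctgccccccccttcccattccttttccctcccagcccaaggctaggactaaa
Mag, chr7:30914923-30915172, minus strand: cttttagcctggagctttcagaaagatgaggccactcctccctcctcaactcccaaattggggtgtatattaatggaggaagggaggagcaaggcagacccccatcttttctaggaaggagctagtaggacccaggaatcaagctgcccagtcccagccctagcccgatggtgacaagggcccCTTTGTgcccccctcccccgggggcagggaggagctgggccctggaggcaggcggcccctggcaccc
S100b, chr10:76253586-76253835, plus strand: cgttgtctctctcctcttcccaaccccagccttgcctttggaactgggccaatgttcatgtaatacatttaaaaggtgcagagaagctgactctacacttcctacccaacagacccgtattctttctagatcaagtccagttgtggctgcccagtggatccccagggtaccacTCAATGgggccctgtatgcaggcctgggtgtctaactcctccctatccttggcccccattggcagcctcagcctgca
Prx holds 1 EGR-type match, 107 to 101 bases before the start, and S100b 1 SOX-type match, 77 to 72 bases before it. In the printed Mag window the SOX-type match lies 67 to 62 bases before the start. Mag has 3 windows, and each holds 1 SOX-type match. That at 30914864 to 30915113 overlaps the printed one and holds the same match, 126 to 121 bases before its own start, and that at 30914322 to 30914571 holds one 208 to 203 bases before the start. The 4 windows of Pmp22 hold neither. Those of Mbp and Sox10 were not analysed here. Of 32851 such windows over all genes, 39.4% hold a SOX-type and 13.8% an EGR-type match, so a match is common, and it describes the letters only.

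The other Schwann cell and myelin genes were taken from 7 lists by role, 83 genes in all with the 6 included, of which 59 were tested. None was called, against 0.0156% of all genes tested. At an unadjusted p under 0.05 stood 7 of the 59, 3 higher and 4 lower in LSD1-mKO mice, against 3.52% and 2.88% of all genes tested. Complete separation in CPM was seen for 9 of the 59, 5 higher and 4 lower, beside 6.63% and 6.1% of all genes tested. The median log2 fold change was -0.05, beside -0.02 over all genes tested, and 36 of the 59 had a lower fitted level, beside 54.8% of all genes.

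Of 8 tested genes of compact myelin, 4 had a higher and 4 a lower fitted level. Mal, a raft protein of the myelin membrane, was at 4.58, 2.52 and 4.71 CPM in WT and at 4.44, 7.45 and 7.45 CPM in LSD1-mKO mice (log2 fold change 0.72, SE 0.30, adjusted p = 0.766, edgeR). Of 11 tested genes of uncompacted myelin and nodes, 4 were higher and 7 lower. Dag1, the dystroglycan gene that muscle fibers also transcribe heavily, and Cnp, an enzyme of uncompacted cytoplasm, were the highest per length, with log2 fold changes of 0.03 (SE 0.12) and 0.05 (SE 0.14). Drp2, the partner of Prx at the outer membrane, was at 15.2, 18.0 and 17.5 CPM in WT and at 20.5, 22.7 and 18.8 CPM in LSD1-mKO mice. Its groups did not overlap, and its log2 fold change was 0.29 (SE 0.12, adjusted p = 0.756, edgeR).

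Among 10 tested genes of lipid synthesis, 4 were higher and 6 lower. Fdft1, an enzyme of sterol synthesis, and Cers2, which makes long-chain ceramides, had log2 fold changes of 0.07 (SE 0.19) and 0.00 (SE 0.12).

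Among 9 tested transcription factors of myelination, Tead1 was higher at an unadjusted p under 0.05 (log2 fold change 0.30, SE 0.09, adjusted p = 0.631, edgeR) and Nfatc4 lower (-0.48, SE 0.18, adjusted p = 0.726). Egr2, the partner of Sox10, was at 1.33, 1.62 and 1.78 CPM in WT and at 1.41, 1.30 and 0.931 CPM in LSD1-mKO mice (log2 fold change -0.37, SE 0.30, adjusted p = 0.848, edgeR). Tead1 and its partner Yap1 stood at 90.3 and 57.7 TPM, and both are also transcribed in muscle fibers.

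Of 15 genes of the Schwann lineage and its receptors, 8 were tested. Erbb3, the neuregulin receptor of Schwann cells, was at 8.32, 8.64 and 6.75 CPM in WT and at 8.80, 9.77 and 8.85 CPM in LSD1-mKO mice. The groups did not overlap, but only by a small margin, and the log2 fold change was 0.21 (SE 0.15, adjusted p = 0.817, edgeR). Lgi4, which Schwann cells secrete to start myelination, had a log2 fold change of -0.03 (SE 0.24). Ngfr, the low-affinity neurotrophin receptor, is in the list of non-myelinating and repair Schwann genes instead. It was at 0.178 to 0.724 CPM and not tested.

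Of 8 tested genes of non-myelinating and repair Schwann cells, 2 were higher and 6 lower. Col28a1, a collagen of peripheral nerve, was at 6.27, 5.76 and 6.93 CPM in WT and at 3.33, 4.56 and 4.19 CPM in LSD1-mKO mice. Every LSD1-mKO mouse was below every WT mouse, and the log2 fold change was -0.65 (SE 0.19, adjusted p = 0.608, edgeR). Jun, which repair Schwann cells use but which most cells of muscle transcribe, had a log2 fold change of -0.42 (SE 0.18, adjusted p = 0.766, edgeR), and Ncam1 one of -0.01 (SE 0.14). Among the axonal signals, Adam17 and Bace1, the proteases that cut neuregulin, had log2 fold changes of 0.01 (SE 0.09) and 0.23 (SE 0.14), and Nrg1 was listed at 0 in every library.

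**Figure D3:**
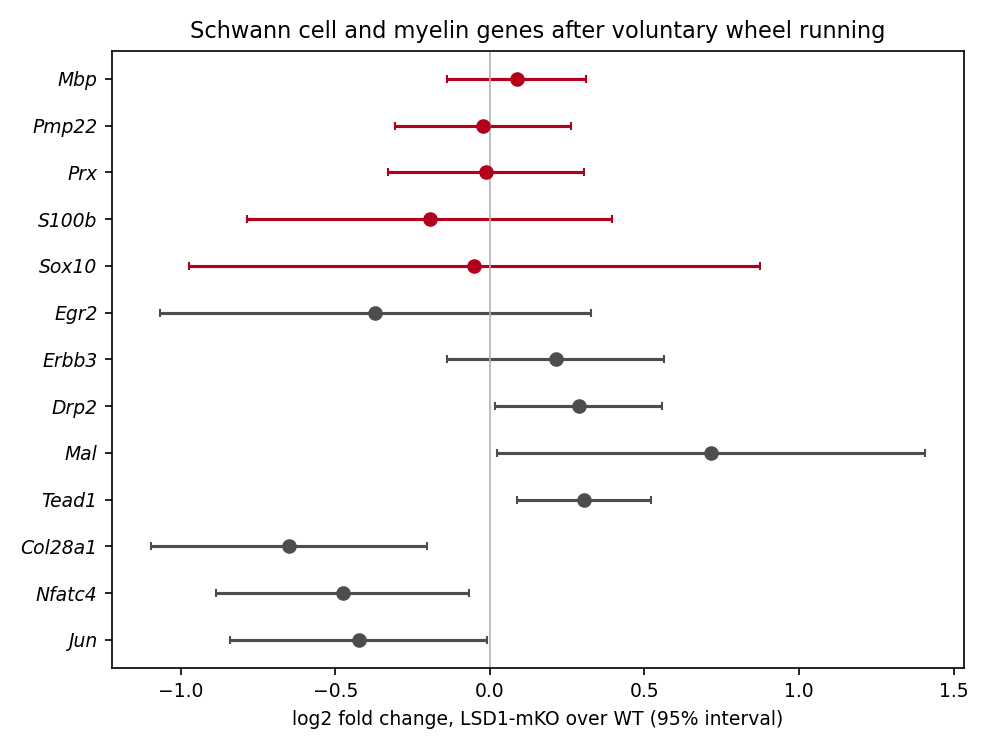
Log2 fold change, LSD1-mKO over WT, with 95% intervals from edgeR for the 5 tested genes (red) and 8 further Schwann cell and myelin genes (gray). All gray genes but Egr2 and Erbb3 were picked for an unadjusted p under 0.05 in this same fit. Of the 59 list genes tested, 7 had such a p, so the gray genes do not show the typical list gene. The intervals of the 5 red genes include 0, and Sox10 has the widest of them, -0.97 to 0.87. Mag was not tested and is left out.

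The summed levels of compact myelin and Schwann lineage genes varied less between mice than those of fibroblast and immune markers. The compact myelin sum ran from 148 to 167 CPM in WT and from 146 to 174 CPM in LSD1-mKO mice, 1.18 times from lowest to highest, and the Schwann lineage sum from 42.0 to 44.0 and from 41.3 to 44.5 CPM, 1.08 times. The fibroblast sum differed by 3.22 times, the immune sum by 3.03 times and the endothelial sum by 1.42 times. Steadiness was neither general to the Schwann cell lists nor particular to them, since the sum of non-myelinating and repair Schwann genes differed by 1.55 times, and the adipocyte and smooth muscle sums by 1.14 and 1.26 times. Within genotypes, the median SD of log2 CPM was 0.23 over the compact myelin genes and 0.23 over the endothelial markers. It was 0.63 over the fibroblast markers, 0.77 over the immune markers and 0.17 over all genes tested. The median compact myelin gene was thus not steadier than the median gene tested. These sums are descriptions of the 6 libraries, and a sum leans on its most abundant genes.

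**Figure D4:**
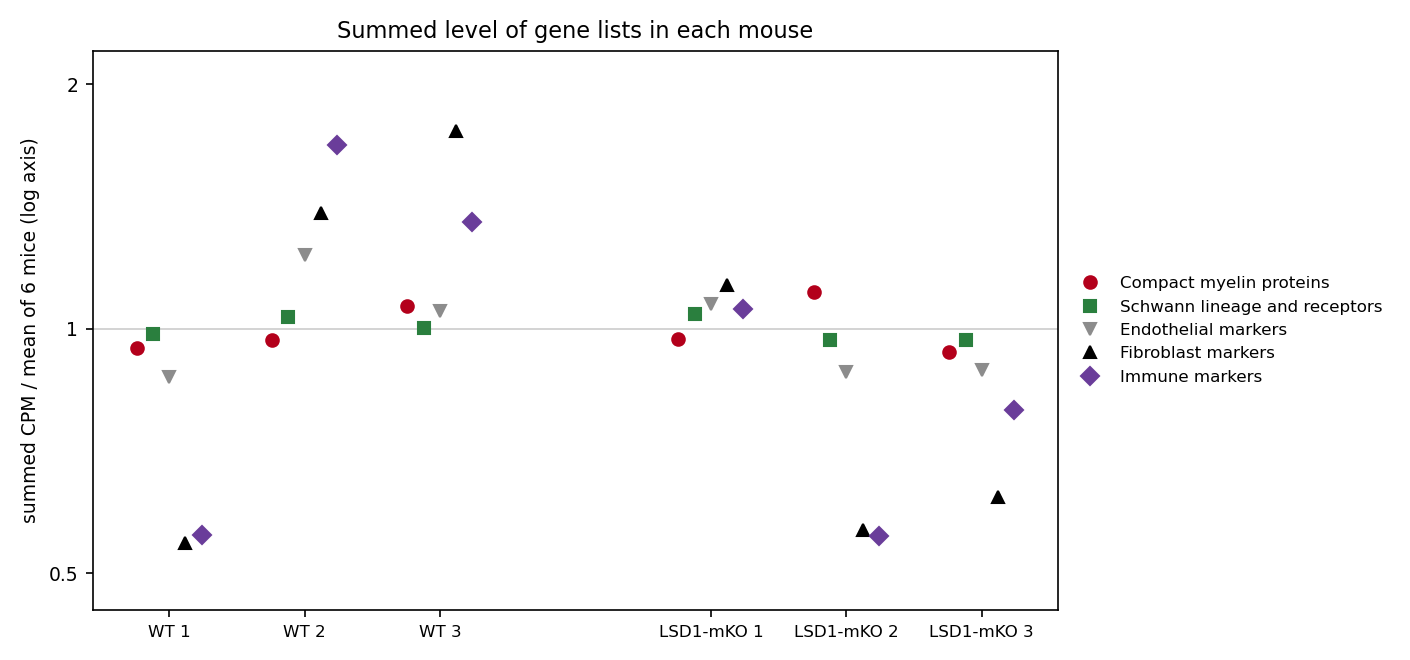
Summed CPM of 5 gene lists in each mouse, divided by the mean of the 6 mice for that list (logarithmic axis). Fibroblast (black) and immune (purple) sums differ by 3.22 and 3.03 times between mice, while compact myelin (red) and Schwann lineage (green) sums stay within 1.18 and 1.08 times.

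LSD1-mKO replicate 2 held the highest value for 17 of the 59 tested Schwann cell and myelin genes, or 28.8%, whereas it was highest for 13.2% of all genes tested. Mbp and Prx were among them, and Mag, which was not tested, was also highest there. LSD1-mKO replicate 3 held the lowest value for 15 of the 59, or 25.4%, beside 15.7% of all genes, and WT replicate 1 for 17, or 28.8%, beside 23.3%. WT replicate 1 and LSD1-mKO replicate 2 had the lowest fibroblast and immune sums, and their part in these counts was not tested. Without LSD1-mKO replicate 2, the log2 fold change of Mbp was 0.01 and that of Prx -0.11.

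The markers of the cells that could share these transcripts were checked. Of 10 oligodendrocyte genes, Mag included, 0 passed the expression filter and 4 (Mobp, Opalin, Olig2 and Klk6) were at 0 in every library. Of 10 motor axon genes, 3 were tested. Chat and Slc18a3, genes of motor neurons, were at 0 in every library. Motor neuron cell bodies lie outside the muscle, so these values do not show whether motor axons were present. Uchl1, a neuronal enzyme that muscle also transcribes and a gene chosen after its values were seen, was at 75.8, 59.4 and 83.4 CPM in WT and at 102, 92.4 and 79.7 CPM in LSD1-mKO mice (log2 fold change 0.33, SE 0.14, adjusted p = 0.766, edgeR).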

How the data were processed

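The authors sequenced 75-base single-end reads of poly(A) RNA and aligned them to mm10 with STAR. The deposited table holds estimated counts per gene symbol, not all whole, and the counter, its annotation and its use of strand are not given in the sources used here. A second deposited table holds the authors' own DESeq2 comparison of the genotypes (fold changes and p-values) and was not used. Labels gave 3 WT and 3 LSD1-mKO mice. Nothing in the labels beyond the mouse numbers ties samples to litters or days.

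Counts were rounded to whole numbers and tested with edgeR 4.0.16 (R 4.3.3): filterByExpr, TMM factors, glmQLFit and glmQLFTest on genotype, Benjamini-Hochberg adjustment over 12828 genes, threshold 0.05. CPM used the TMM-scaled totals of the genes tested, as the fit does. They were first computed over the totals of all genes, and the change was made after values had been seen, partly because the earlier results known here had slightly different values. It moved no CPM of the 6 genes by more than 0.14%. Log2 CPM used a prior count of 2. TPM used the longest protein-coding transcript of GENCODE vM21 (any transcript where none was coding), matched by symbol for 23350 of 24411 genes and by an older symbol for 677. Intervals on counts are exact Poisson and cover counting error only. The fit was tested on simulated data, where it found most changed genes but called unchanged ones at a rate above the nominal threshold, so adjusted p-values near the threshold may be too small. DESeq2 1.42.0 and limma 3.58.1 voom were alternatives.

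The genes and lists were chosen with earlier results of these data known. The text names, beside the 6, the 2 genes of highest mean TPM in each other Schwann cell list. It also names list genes with an unadjusted p under 0.05, Egr2, Erbb3 and Ngfr, and Kdm1a as the label check. Last come the 5 genes outside the lists most like the mean of the tested genes. Some genes that this rule names are not reported here.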

Additional observations from a re-analysis of the deposited data

How the results depend on the processing

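Adjusted p-values of the 5 tested genes stayed at 0.744 or above in every alternative, and none had an unadjusted p under 0.05. Of 80 comparisons with an alternative over the 6 genes, 69 kept the direction and 11 turned it, 9 of these on leaving out a mouse. Without 1 mouse, log2 fold changes ran from 0.0051 to 0.14 for Mbp, from -0.10 (without WT replicate 1) to 0.11 (without WT replicate 3) for Pmp22, between -0.11 (LSD1-mKO replicate 2 left out) and 0.050 (WT replicate 2 left out) for Prx, from -0.38 to -0.068 for S100b, from -0.40 (without WT replicate 3) to 0.34 (without WT replicate 2) for Sox10 and from 0.40 to 0.69 for Mag. Prx was at 0.0048 with no filter on low counts and Sox10 at 0.054 with limma voom; the cause was not tested. Genes called over all tested were 2, 42 with DESeq2 (33 higher), 11 with no filter, 1 with the replicate block, and 1 (without WT replicate 2 or any 1 LSD1-mKO mouse) to 3 (without WT replicate 1) on leaving out a mouse. None was a Schwann cell or myelin gene. The lower fitted levels, 36, ran from 28 to 39 without 1 mouse. Same-numbered mice were compared over genes by log2 CPM after the mean of each genotype was removed. These deviations had correlations of -0.352, -0.107 and -0.15, so the numbers were not taken as pairs. The replicate block called none of the 5 genes. Mag has no value under DESeq2, voom, the stricter filter or the block. With CPM over the totals of all genes, an alternative added after seeing the data, 12.8% of genes did not overlap in place of 12.7%, and 18 Schwann cell genes in place of 17 were highest in LSD1-mKO replicate 2.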

Other observations

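Among the genes outside the lists whose level most resembled the mean of the 5 tested genes (Pearson r of log2 CPM over 6 mice, a description) were Asns at 0.972, Setd1b at 0.968, Ppapdc3 at 0.965 and Pcdh12 at 0.964. With the genotype means removed, among them were Cracr2b at 0.990, Zhx2 at 0.985, Actr5 at 0.984 and Dlg4 at 0.981. These genes were picked for the highest r over only 6 mice, and how high r reaches by chance was not tested. The mean was highest in WT replicate 2 (0.130) and lowest in WT replicate 3 (-0.112), as was Sox10, the most variable of the 5. Because the 5 genes did not move together by any test that passed, likeness to their mean is not likeness to each of them.

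Of 7 perineurial markers, genes of the sheath around nerve bundles, 6 were tested and their sum ran from 64.7 to 80.8 CPM in WT and from 65.2 to 83.6 CPM in LSD1-mKO mice. Prph, a neurofilament-type protein of peripheral axons that was chosen after its values were seen, was at 2.65, 4.41 and 4.09 CPM in WT and at 2.37, 2.61 and 1.58 CPM in LSD1-mKO mice. Its groups did not overlap, beside 6.1% of the genes tested with LSD1-mKO lower, and its log2 fold change was -0.76 (SE 0.29, adjusted p = 0.729, edgeR). Prph was the only lower one of the 3 tested motor axon genes. Stmn2 had a log2 fold change of 0.63 (SE 0.31, adjusted p = 0.766, edgeR), and Uchl1 was also higher. Whether the amount of axon differed was not tested.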
